A study of Mus musculus with 3 samples.

Results

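Transcripts of 48 cell division genes were followed in nuclei of mouse epididymal fat at 3 stages of diet-induced obesity. These genes were the listed members of a panel of division genes among the 29625 genes of the whole series, matched by symbol. The match used no measured value, but the members and lists were chosen with earlier results of these data known. Of the 48 genes, 32 act in mitosis, 14 act in DNA replication and 2, the formin Diaph3 and the Polycomb methyltransferase Ezh2, were kept apart from both lists. All 48 were listed in each library, with at least 50 counts each. The fat came from male C57BL/6J mice bought at 5 weeks of age and given 1 week to acclimatise, and the tissue of 8 mice was pooled into 1 library for each stage. Ctrl mice received an ordinary diet, whereas Mid_Ob and Ob mice received a diet with 60% fat until they weighed over 10% and over 20% more than the mean control mouse. All groups shared strain, sex and depot, and the number of weeks on the diet was not given in the sources used here. As each stage was 1 library, stage and library cannot be told apart and no test between stages was made.

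A cell that divides first copies its DNA in S phase and then parts the copies in mitosis. Origin licensing by the MCM helicase, nucleotide supply by ribonucleotide reductase and the fork proteins serve the first step, and condensins, kinetochores, spindle motors and the cytokinesis machinery serve the second. In adipose tissue, mature adipocytes are known as non-dividing cells, while macrophages, lymphocytes and stromal progenitors can enter the cycle. In the testis, which lies next to this depot, germ cells divide by mitosis and then by meiosis, and many mitosis genes are used in both.

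The promoters of the members show letters that are known to bear on cell cycle timing. The patterns searched, 3 in all, were read on both strands of the RefSeq promoter windows of GRCm38.p6, from 250 bases before to 50 bases after each start. They were TTTNNCGC, which E2F factors can bind, TTTGAA, the cell cycle homology region bound by the DREAM complex, and CCAAT, bound by NF-Y. Windows were found for 40 of the 46 mitosis and replication genes. Aurkb, Ccna2, Tpx2, Smc4, Mcm4 and Atad2 were not matched. Each gene was counted once, as holding a pattern if any of its windows did. TTTGAA was held by 23 of 28 mitosis genes (82.1%) and by 2 of 12 replication genes (16.7%). Over all 27025 genes with a window of the same length, the share was 20.2%. TTTNNCGC had the opposite split, with 3 of 28 mitosis genes (10.7%), 7 of 12 replication genes (58.3%) and 5.93% of all genes. CCAAT was held by 75% of the mitosis and 83.3% of the replication genes, beside 41.1% of all. A match describes letters and is not a binding site. Shown here are the 2 replication and the 2 mitosis genes with the most counts in cluster 10 of Ob among those with a window. Pola1, Brip1 and Top2a show the split between the lists, whereas Kif15 is 1 of the 3 mitosis genes that hold TTTNNCGC. The windows, with start and end, are chrX:93632106-93632405 (minus strand) for Pola1, chr11:86201144-86201443 (minus strand) for Brip1, chr11:99024140-99024439 (minus strand) for Top2a and chr9:122950831-122951130 (plus strand) for Kif15. Each runs 5' to 3' along the gene, and capitals mark the matches on either strand.
Pola1: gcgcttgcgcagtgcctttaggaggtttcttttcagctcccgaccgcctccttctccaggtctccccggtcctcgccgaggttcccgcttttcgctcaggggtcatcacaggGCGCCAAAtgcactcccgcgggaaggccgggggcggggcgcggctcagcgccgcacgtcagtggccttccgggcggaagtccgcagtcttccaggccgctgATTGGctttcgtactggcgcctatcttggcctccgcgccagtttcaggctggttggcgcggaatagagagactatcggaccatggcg
Brip1: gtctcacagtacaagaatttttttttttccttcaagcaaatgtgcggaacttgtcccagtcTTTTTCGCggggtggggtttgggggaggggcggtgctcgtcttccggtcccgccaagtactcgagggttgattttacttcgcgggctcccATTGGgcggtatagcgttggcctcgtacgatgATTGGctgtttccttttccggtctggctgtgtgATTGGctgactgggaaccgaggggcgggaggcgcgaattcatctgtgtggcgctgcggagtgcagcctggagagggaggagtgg
Top2a: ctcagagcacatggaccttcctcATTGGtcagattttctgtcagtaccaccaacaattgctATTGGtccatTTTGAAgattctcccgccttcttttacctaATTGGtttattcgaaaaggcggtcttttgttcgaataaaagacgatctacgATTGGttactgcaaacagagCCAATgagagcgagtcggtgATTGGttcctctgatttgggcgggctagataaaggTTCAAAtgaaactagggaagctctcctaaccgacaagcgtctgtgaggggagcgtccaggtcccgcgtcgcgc
Kif15: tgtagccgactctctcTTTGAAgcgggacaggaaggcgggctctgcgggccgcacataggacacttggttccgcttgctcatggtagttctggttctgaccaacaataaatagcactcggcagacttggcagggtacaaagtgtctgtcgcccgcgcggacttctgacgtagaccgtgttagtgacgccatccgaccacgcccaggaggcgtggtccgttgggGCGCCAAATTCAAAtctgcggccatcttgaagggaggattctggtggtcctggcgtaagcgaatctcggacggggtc
Pola1, the catalytic subunit of DNA polymerase alpha, held 1 TTTNNCGC match 138 bases before its start and 1 CCAAT match. Brip1, a helicase that acts in DNA crosslink repair, held 1 TTTNNCGC match and 3 CCAAT matches. Top2a, the topoisomerase that untangles sister chromatids, held 2 TTTGAA and 6 CCAAT matches. In Kif15, a spindle motor, a TTTNNCGC match 27 bases before the start was followed directly by a TTTGAA match 19 bases before it. No matches overlapped in these 4 windows.

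The libraries held 53980929 UMIs in 14 clusters for Ctrl, 57665213 in 11 clusters for Mid_Ob and 111595518 in 21 clusters for Ob, and levels are given as UMIs of a gene scaled to a total of 1000000 UMIs (CPM), with 95% intervals that cover counting error only. Clusters were the authors', made from these genes among others, so a cluster set beside the rest is a description. Class names such as macrophage-like come from marker genes. Clusters named for testis or epididymis held 47.0% of the UMIs of Ctrl and 30.3% of those of Mid_Ob, and no cluster of Ob was named so. These shares leave out the unnamed clusters. Among these, cluster 11 of Mid_Ob, with 2.30% of its UMIs, had 6 of 17 epididymal markers above 2-fold. Its epididymal markers summed to 3958 CPM. In unnamed cluster 7 of Mid_Ob, with 1 of 17 above 2-fold, they summed to 4057 CPM, and in unnamed cluster 17 of Ob to 1500 CPM. Another 2 unnamed clusters had mixed markers. Cluster 1 of Ctrl, with 2.16% of its UMIs, had 14 of 15 spermatid, 7 of 10 spermatocyte and 11 of 14 macrophage markers above 2-fold, and cluster 5 of Mid_Ob, with 0.812%, had 15 of 17 epididymal and 11 of 14 macrophage markers above 2-fold. Nuclear RNA includes introns, and the counts of the 48 genes went with gene length (Spearman's rho 0.77, 0.67 and 0.74 across genes, lengths of 4.153 to 485.869 kb). Levels of single genes are therefore compared with each other per kb. Summed levels of a list were not scaled by length, so each is compared between clusters or libraries and not with the other list. Counts do not tell fewer nuclei of a type from less RNA per nucleus. Free RNA and doublets were not assessed, as nuclei were not analysed one by one here.

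In whole libraries, mitosis transcripts were most abundant in Ctrl, least abundant in Mid_Ob and intermediate in Ob, with summed levels of 1079, 270 and 596 CPM. Replication transcripts ran 295, 205 and 350 CPM, so Ob was above Ctrl for this list. Every one of the 32 mitosis genes had its lowest level in Mid_Ob, and 29 had their highest in Ctrl, the other 3 being highest in Ob. Of the 14 replication genes, 11 were lowest in Mid_Ob and 8 were highest in Ob, whereas Mcm2, Mcm4 and Pola1 were lowest in Ctrl. These orders were not counted over all genes, so the members cannot be set beside them here. By pairs, 35.5% of all genes tested were lower in Mid_Ob than in Ctrl by more than 1.5-fold. Between Ob and Mid_Ob, 17.5% were higher in Ob.

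Named members showed how wide the range was. Knl1, the kinetochore scaffold, stood at 127 CPM in Ctrl, 10.5 in Mid_Ob and 35.5 in Ob. Mki67, which coats mitotic chromosomes and is the common proliferation marker, stood at 17.8, 11.97 and 26.2 CPM. Knl1 thus spanned a far wider range than Mki67, and the libraries ranked differently for the pair. Top2a stood at 47.6, 15.97 and 47.4 CPM, nearly level in Ctrl and Ob. Smc4, a condensin subunit that compacts chromosomes, stood at 140, 63.6 and 79.6 CPM, and its partner Smc2 at 87.9, 14.4 and 27.5 CPM. Both condensin genes were highest in Ctrl. The spindle motors Kif15 (60.8, 9.54 and 33.7 CPM) and Kif11 (61.6, 9.38 and 26.7 CPM) and the kinetochore gene Cenpf (71.9, 8.32 and 15.96 CPM) had the same order. Anln, the anillin of the cleavage furrow, had 33.3, 13.1 and 31.8 CPM, and Diaph3, which nucleates actin, had 150, 43.0 and 112 CPM. Pola1 differed from these, with 80.7, 84.7 and 139 CPM. Atad2, a chromatin ATPase, had 52.6, 38.6 and 66.5 CPM, and Brip1 had 27.2, 12.4 and 35.8 CPM. All 3 of these replication genes were highest in Ob, while Hells, a chromatin remodeller, was highest in Ctrl with 50.3, 15.8 and 22.8 CPM. Rrm1 (24.3, 10.7 and 15.001 CPM), Cdc45 (14.9, 7.98 and 8.59 CPM) and Hells had one order, while Pcna (14.7, 9.99 and 17.5 CPM) and Mcm6 (11.1, 9.50 and 18.6 CPM) were highest in Ob. Ezh2 varied less, with 74.0, 50.9 and 70.6 CPM.

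**Figure D1:**
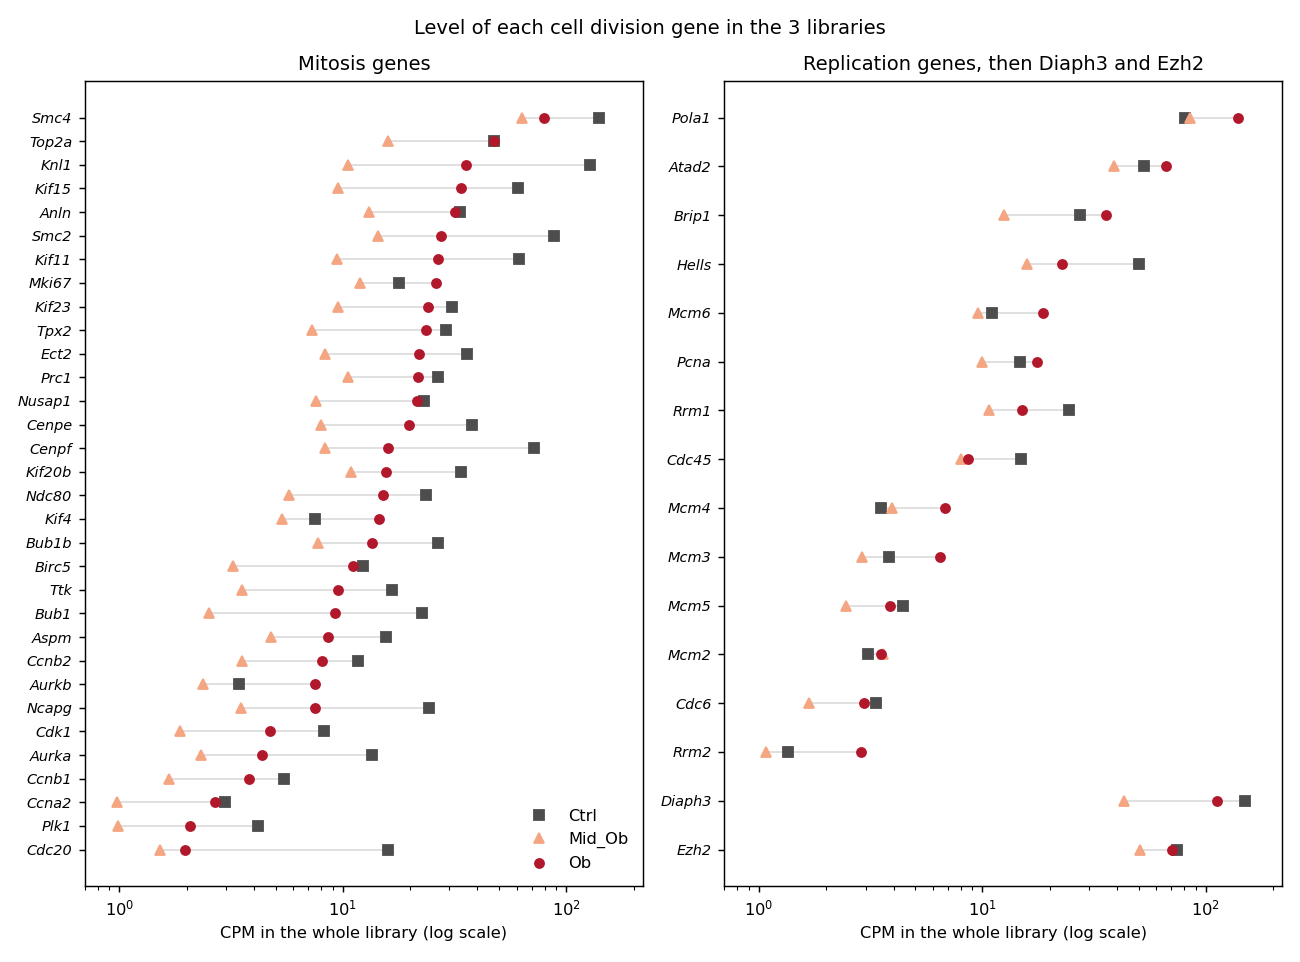
Level of each of the 48 cell division genes in the Ctrl, Mid_Ob and Ob libraries, in CPM on a log scale, with 1 row per gene, mitosis genes on the left, and a grey line over the range of the 3 libraries. All 32 mitosis genes are lowest in Mid_Ob, and Mcm2, Mcm4 and Pola1 are the replication genes that are lowest in Ctrl. These orders were not counted over all genes.

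Between Mid_Ob and Ctrl, 29 of 32 mitosis genes and 6 of 14 replication genes were lower by more than 1.5-fold and none was higher, where 35.5% of all genes that reached 50 counts over both libraries were lower and 17.3% were higher. The median log2 ratio was -1.97 for mitosis and -0.50 for replication genes, beside -0.16 for all genes tested. Knl1 was the lowest, with a ratio of 0.0828 (interval 0.0761 to 0.0900), followed by Cdc20, which activates the anaphase complex (0.096, 0.0762 to 0.1197), and the checkpoint kinase Bub1 (0.111, 0.0930 to 0.132). At the other end of the list, Kif4 (0.710), Aurkb (0.688) and Mki67 (0.671) stayed within 1.5-fold. In the replication list Hells (0.314, 0.291 to 0.338), Rrm1 (0.441) and Brip1 (0.457) had the lowest ratios, and Mcm2 (1.17), Mcm4 (1.12) and Pola1 (1.05) the highest.

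Between Ob and Mid_Ob the direction was the other way. Here 29 of 32 mitosis genes and 10 of 14 replication genes were higher by more than 1.5-fold and none was lower, beside 17.5% higher and 27.3% lower over all genes. The median log2 ratio was 1.32 for mitosis, 0.79 for replication and -0.09 for all genes tested. Bub1 was higher by 3.66-fold (3.08 to 4.39), Kif15 by 3.53-fold (3.23 to 3.87) and Birc5, the survivin of the chromosomal passenger complex, by 3.46-fold (2.96 to 4.05). Smc4 (1.25), Cdc20 (1.29) and Kif20b (1.44) were within 1.5-fold. Among replication genes Brip1 (2.88, 2.66 to 3.13), Rrm2 (2.67, 2.03 to 3.56) and Mcm3 (2.24, 1.89 to 2.67) had the highest ratios, whereas Mcm2 (0.984), Cdc45 (1.08) and Rrm1 (1.40) had the lowest. Rrm2 and Rrm1 encode the small and large subunits of one enzyme, ribonucleotide reductase, and their intervals did not overlap (Rrm1 1.28 to 1.54). Without cluster 10 of Ob, described further on, 18 mitosis and 6 replication genes were higher and none lower (medians 0.66 and 0.42), beside 17% higher and 27.1% lower over all genes.

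Between Ob and Ctrl the lists parted. Of the mitosis genes 19 were lower and 2 higher by more than 1.5-fold (median log2 ratio -0.81), and of the replication genes 3 were lower and 5 higher (median 0.29), beside 43.5% lower and 18.1% higher over all genes (median -0.35). Scaled to that median, 12 mitosis genes were lower and 3 higher, and 1 replication gene was lower and 7 higher, beside 37.4% lower and 27.3% higher over all genes. Without cluster 10 of Ob, 28 mitosis genes were lower and none higher, and 4 replication genes were lower and 1 higher (medians -1.37 and -0.01), beside 43.6% lower and 17.8% higher over all genes. The higher mitosis genes were Aurkb, the kinase of the passenger complex (3.43 CPM in Ctrl and 7.53 in Ob, ratio 2.20, 1.87 to 2.59), and the chromosome motor Kif4 (7.52 and 14.5 CPM, ratio 1.93, 1.73 to 2.16). Mki67 came next, within 1.5-fold (1.47). Cdc20 (0.123, 0.106 to 0.143), Cenpf (0.222) and Knl1 (0.279) were lowest. Rrm2 (2.12), Mcm4 (1.95) and Pola1 (1.72) led the replication list, and Hells (0.454), Cdc45 (0.577) and Rrm1 (0.618) went against its median.

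The testis clusters of Ctrl held most of its mitosis transcripts. Clusters that were germ cell-like or testis somatic-like held 77.6% (77.2 to 77.9) of the mitosis UMIs of Ctrl and 54.8% (54.0 to 55.5) of its replication UMIs, with 41.7% of all its UMIs. The clusters named for testis and epididymis were then left out, with the unnamed clusters, such as cluster 1 of Ctrl, kept in. The summed mitosis level was then 419, 264 and 596 CPM in Ctrl, Mid_Ob and Ob, and the replication level 227, 204 and 350 CPM. Without cluster 10 of Ob, described further on, Ob had 384 CPM of mitosis transcripts, below the 419 of Ctrl, and 282 CPM of replication transcripts, so the place of Ob above Ctrl in the mitosis list rested on that cluster. Without cluster 1 of Ctrl and cluster 5 of Mid_Ob as well as the named clusters, the mitosis level was 383 CPM in Ctrl and 264 in Mid_Ob, and the replication level 222 and 204 CPM. The count of mitosis genes between Ob and Ctrl turned to 18 higher and 1 lower (Cdc20), with a median log2 ratio of 0.68, and 8 replication genes were higher and none lower, with a median of 0.72, beside 17% higher and 31.9% lower over all genes. Without cluster 1 of Ctrl as well, 21 mitosis genes were higher and 1 lower (median 0.82), and 9 replication genes were higher and none lower (median 0.73), beside 18% higher and 30.3% lower over all genes. Without cluster 10 of Ob and the named clusters, 3 mitosis genes were higher and 5 lower (median 0.029), and 6 replication genes were higher and 1 lower (median 0.39), beside 16.5% higher and 31.9% lower over all genes. With cluster 10 counted, Top2a was higher in Ob by 2.84-fold (2.58 to 3.12), Mki67 by 2.36-fold (2.10 to 2.65) and Aurkb by 4.78-fold (3.54 to 6.61). Between Mid_Ob and Ctrl, 18 mitosis genes were still lower and 1, Aurkb (1.60), was higher (median -0.67, 22.9% lower and 15.6% higher over all genes), and replication genes were near level (median -0.07, 1 lower). Without cluster 1 of Ctrl and cluster 5 of Mid_Ob, 13 mitosis genes were lower and 1 higher (median -0.51), beside 21% lower and 16.3% higher over all genes. Between Ob and Mid_Ob, 30 mitosis and 11 replication genes were higher and none lower (medians 1.34 and 0.83), beside 15% higher and 24.8% lower over all genes.

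**Figure D2:**
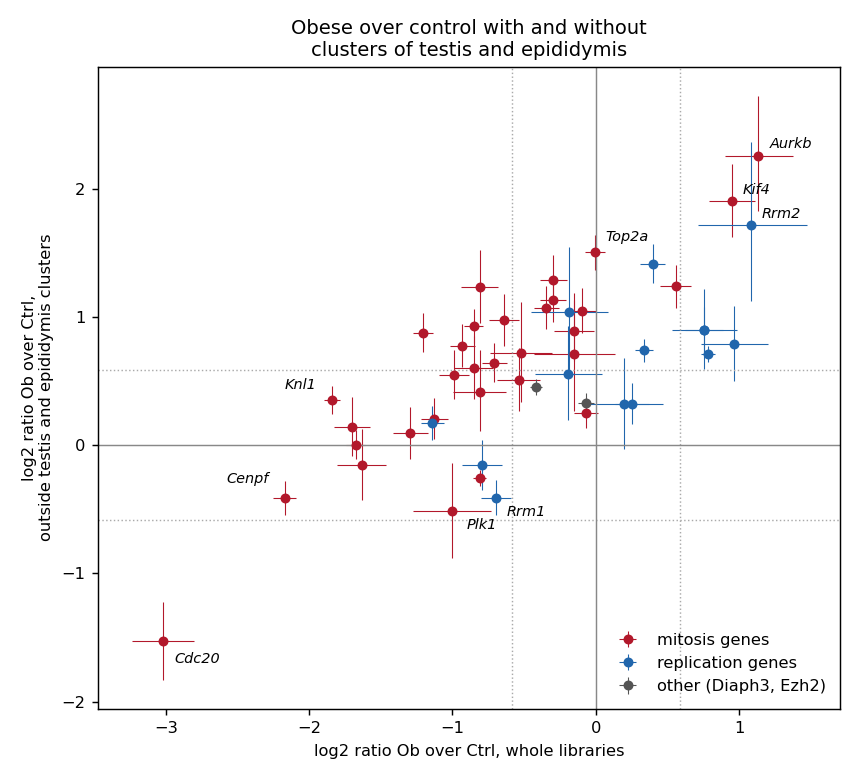
Log2 ratio of Ob to Ctrl for each cell division gene, over whole libraries (horizontal axis) and with testis and epididymis clusters left out (vertical axis), where bars are 95% counting intervals and dotted lines mark 1.5-fold. The median log2 ratio of the mitosis genes moves from -0.81 to 0.68, and Cdc20 is the mitosis gene that stays lower by more than 1.5-fold.

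In Ob, division transcripts lay in one cluster above all others. Cluster 10 held 4.25% of the UMIs of the library, but 38.3% (38.0 to 38.7) of its mitosis UMIs and 23.0% (22.6 to 23.4) of its replication UMIs. Its summed mitosis level was 5379 CPM (5314 to 5446, from 25514 UMIs) and its replication level 1892 CPM (1853 to 1932, from 8974 UMIs). It was the highest of the 21 clusters for 47 of the 48 genes, where 4.93% of all genes with at least 50 counts peaked there. As the members were chosen with earlier results of these data known, this count is a description and not independent of the cluster. The exception was Pcna, the sliding clamp of the replication fork, at 51.7 CPM in cluster 10, 67.6 in unnamed cluster 13 and 75.7 in unnamed cluster 18. Margins over the next cluster were wide for the checkpoint genes Bub1 (8.86-fold) and Bub1b (7.67-fold) and for Kif15 (6.54-fold), and narrow for Mcm2 (1.10-fold) and Mcm4 (1.18-fold), whose next cluster was lymphocyte-like cluster 15.

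Roles within the lists differed in the median share of a gene that lay in cluster 10, but the ranges of the mitosis roles overlapped. They ran from 39.5 to 49.8% for spindle genes and from 28.4 to 41.5% for cyclins, kinases and their partners. The median share of a gene's Ob counts found there was 44.5% for the 6 spindle genes, 41.1% for the 7 kinetochore and checkpoint genes, 40.0% for the 5 genes of chromosome structure, 37.6% for the 5 cytokinesis genes and 36.6% for the 9 cyclins, kinases and their partners. For the 9 licensing and fork genes it was 18.2%, for the 2 genes of nucleotide supply 32.1% and for the 3 of repair and chromatin 26.0%. Kif15 had the largest share, 49.8%, and Cdc45, which joins the MCM helicase at the fork, the smallest, 11.7%. Smc4, at 20.5%, was the lowest of the mitosis genes. Rrm2 (41.6%) and Brip1 (34.9%) stood above the other replication genes, and Rrm1 lay at 22.6%.

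The members with the most counts in cluster 10 came from several roles. Mki67 stood at 279 CPM, Top2a at 491, Kif15 at 394, Knl1 at 393 and Smc4 at 385 CPM. In the replication list Pola1 reached 715 CPM, Atad2 407, Brip1 294 and Hells 106 CPM. Diaph3 stood at 839 CPM and Ezh2 at 323 CPM. Per kb of gene the order changed: Birc5 (16.7 CPM per kb), Top2a (15.7), Smc4 (12.9), Pcna (12.4), Aurkb (11.04) and Mki67 (10.5) were the highest, while Pola1 (2.18) and Diaph3 (1.73), both very long genes, were far down the list and Cdc45 (0.749) was last.

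**Figure D3:**
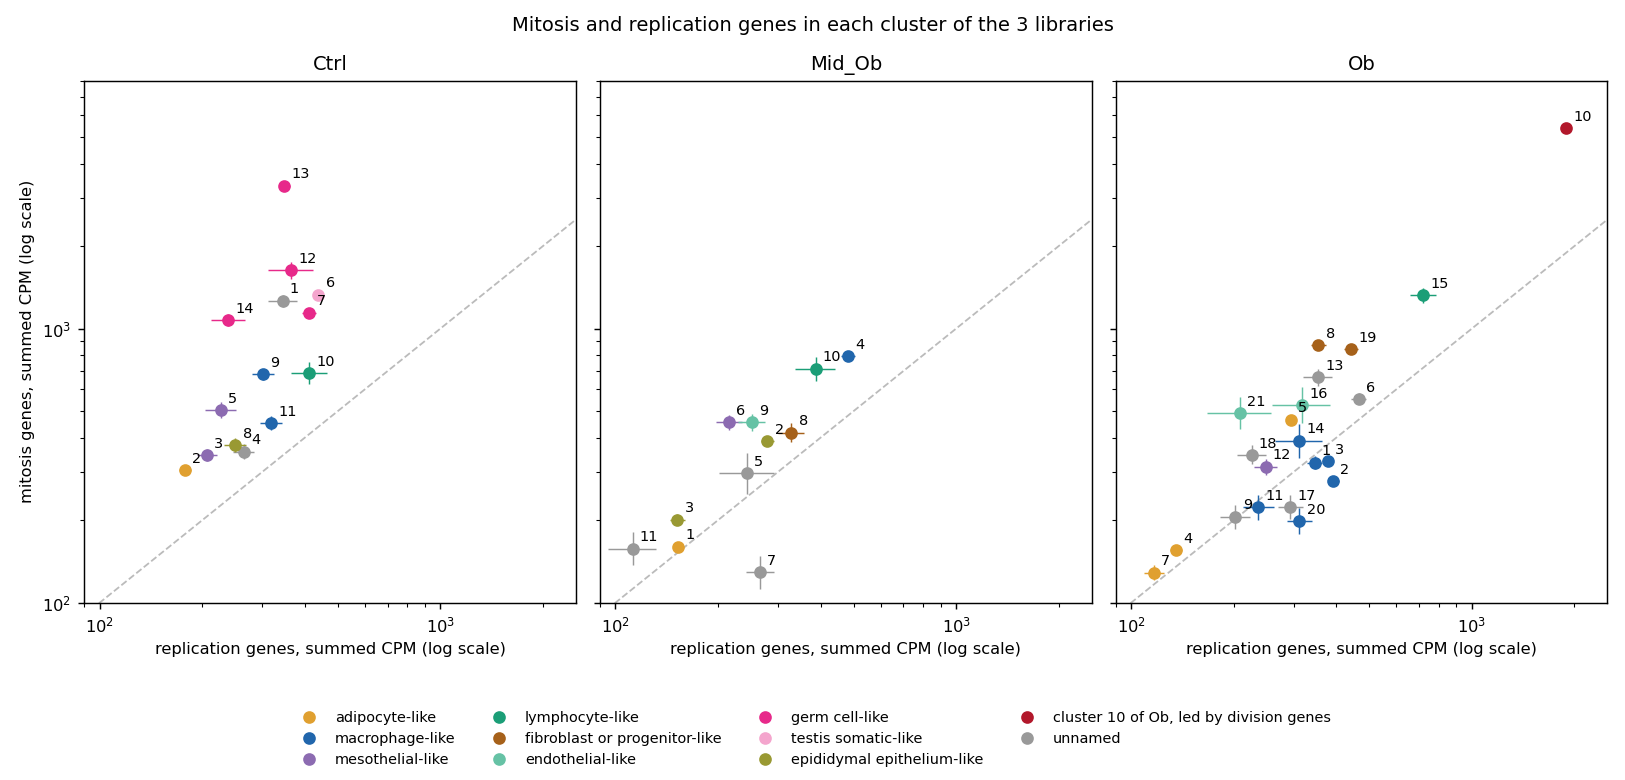
Summed level of the 32 mitosis genes against that of the 14 replication genes (both in CPM, log scales) in every cluster of the 3 libraries, coloured by class, with 95% counting intervals and a line of equal level. Cluster 10 of Ob stands at 5379 and 1892 CPM, and cluster 13 of Ctrl at 3326 and 348 CPM.

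Macrophage and lymphocyte markers were both present in cluster 10. Against the other clusters of Ob, 7 of 14 macrophage and 8 of 12 lymphocyte markers were above 2-fold there. All 14 macrophage markers were higher there than in adipocyte-like clusters 4 and 7 together, none was at 0, and 12 of 14 lay within the range of the macrophage-like clusters of Ob (Fcgr1 and Msr1 lay below it). Their summed level was 3913 CPM, beside 5927 in the macrophage-like clusters, 478 in clusters 4 and 7 and 3751 in lymphocyte-like cluster 15. Higher levels than in clusters 4 and 7 were also found for 12 of 12 lymphocyte, 11 of 12 endothelial, 9 of 10 monocyte and dendritic, 10 of 14 fibroblast, 5 of 12 mesothelial and 0 of 16 adipocyte markers. Of these lists 3, 9, 9, 9, 10 and 15 markers lay within the macrophage-like range, so most lymphocyte markers lay outside it. The 12 lymphocyte markers summed to 262 CPM in cluster 10, 8103 in cluster 15 and 52.3 in the macrophage-like clusters, and the adipocyte markers to 1953 CPM, 2755 and 2311 CPM in the same places. Their part in the levels of the division genes was not tested.

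Against the macrophage-like clusters of Ob, all 48 members were higher in cluster 10 by more than 1.5-fold, with a median log2 ratio of 4.35 for mitosis and 2.25 for replication genes, beside 12.2% higher and 7.3% lower over all genes. Top2a stood at 14.2 CPM in those clusters (ratio 34.6, 30.7 to 39.1) and Mki67 at 10.2 CPM (27.3, 23.6 to 31.5). The highest ratios were those of Kif4 (38.0, 30.7 to 47.4) and Knl1 (37.8, 32.9 to 43.6), and the lowest of the mitosis genes was that of Smc4 (5.53, 5.17 to 5.93). The 5 MCM genes were between 2.96-fold (Mcm2) and 4.08-fold (Mcm5) higher, and Pcna was 2.16-fold higher (1.85 to 2.52). Rrm2 (23.6) and Brip1 (12.3) had ratios like those of mitosis genes.

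Other genes of the pathway behaved by phase. Of 30 further S phase genes 29 were higher in cluster 10 than in the macrophage-like clusters (median log2 ratio 2.11), and of 32 further G2 and M genes 31 were (median 2.80), none being lower in either list. Among the 21 G1 regulators 10 were higher and 2 lower (median 0.51). Over all genes, 12.2% were higher and 7.3% lower. Cluster 10 was the highest cluster for 23, 25 and 6 genes of these lists, where 4.93% of all genes with at least 50 counts peaked there. The 6 G1 regulators were the activator E2f1 to E2f3 genes, the repressor E2f7, the pocket protein gene Rbl1 and the kinase Cdk2: E2f7 stood at 87.5 CPM beside 3.75 in the macrophage-like clusters, and E2f2 at 53.1 beside 4.26 CPM. Ccnd3, cyclin D3, was the G1 regulator with the most counts and went the other way, at 392 CPM in cluster 10, 645 in the macrophage-like clusters and 1742 in cluster 15. Ckap5 and Tmpo had the most counts of the G2 and M genes, at 494 and 459 CPM in cluster 10 and 166 and 88.5 CPM in the macrophage-like clusters, and Gas2l3, at 362 CPM, was higher in macrophage-like cluster 2 (422 CPM).

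Away from cluster 10, the levels of Ob were far lower. Lymphocyte-like cluster 15 came second in both lists, with 1322 CPM (1241 to 1407) of mitosis and 719 CPM (659 to 782) of replication transcripts. The fibroblast or progenitor-like clusters 8 and 19 followed in mitosis with 871 (844 to 898) and 839 CPM (812 to 868), whose intervals overlapped. Unnamed clusters 13 and 6 had 664 and 554 CPM. The macrophage-like clusters lay between 199 and 391 CPM, and adipocyte-like clusters 4 and 7 were lowest at 155 and 129 CPM. In cluster 15 Smc4 (237 CPM) and Top2a (150 CPM) had the most counts of the mitosis genes and Pola1 (244 CPM) and Atad2 (170 CPM) of the replication genes, with Mki67 at 63.0 CPM.

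The macrophage-like clusters differed by stage. Their summed mitosis level was 572 CPM in Ctrl (682 in cluster 9 and 452 in cluster 11), 793 CPM (764 to 823) in the single cluster 4 of Mid_Ob and 295 CPM in Ob, where the 6 clusters ranged from 199 to 391 CPM. The 6 clusters of Ob so named all lay below the 3 clusters of the other stages. Unnamed cluster 6 of Ob, left out of this class, had 10 of 14 macrophage markers above 2-fold. It also had 9 of 10 monocyte and dendritic and 10 of 12 lymphocyte markers above 2-fold. Its mitosis level was 554 CPM, above the 452 of cluster 11 of Ctrl. Replication levels of the macrophage-like clusters were closer, at 310, 483 and 359 CPM. Mki67 stood at 24.5, 48.2 and 10.2 CPM in Ctrl, Mid_Ob and Ob, and Top2a at 28.1, 56.9 and 14.2 CPM. Kif15 had the same order with 29.9, 42.3 and 10.9 CPM. Pola1 (135, 186 and 164 CPM) and Atad2 (50.04, 88.2 and 57.3 CPM) were highest in Mid_Ob but not lowest in Ob, and Pcna was level (24.7, 25.1 and 23.9 CPM). Germ cell markers also differed between these clusters: spermatocyte markers summed to 203 and 118 CPM in clusters 9 and 11 of Ctrl, 16.3 in cluster 4 of Mid_Ob and 16.98 to 29.0005 in those of Ob, and spermatid markers to 524 and 309, 110 and 73.5 to 87.8 CPM. Epididymal markers summed to 114 and 51.02 CPM in Ctrl, 1704 in Mid_Ob and 15.1 to 31.8 in Ob. Their part in the levels was not tested.

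Ob against Mid_Ob gave 25 of 28 mitosis genes and 7 of 13 replication genes lower by more than 1.5-fold in this class and none higher, beside 18.4% lower and 13.1% higher over all genes, with median log2 ratios of -1.59, -0.62 and -0.06. Aspm, which organises spindle poles, was lowest (0.191, 0.129 to 0.283), then Mki67 (0.213, 0.174 to 0.261) and Kif23, a motor of the midbody (0.214, 0.175 to 0.263). Ccnb2, Tpx2 and Smc2 were within 1.5-fold, and Plk1, Ccna2, Ccnb1, Cdc20 and Rrm2 had under 50 counts. Mid_Ob against Ctrl gave 11 of 25 and 6 of 11 genes higher and none lower, beside 8.71% higher and 14.8% lower over all genes (medians 0.57 and 0.59). Ob against Ctrl gave 22 of 28 mitosis genes lower and 1 higher, Aurkb (2.31, on 9 counts in Ctrl), with 3 of 13 replication genes higher and 1 lower, beside 13.7% higher and 24.1% lower over all genes (medians -1.05 and 0.20). The ratio of mitosis to replication transcripts was 1.64 in cluster 4 of Mid_Ob, 2.26 and 1.42 in clusters 9 and 11 of Ctrl and 0.638 to 1.25 in the clusters of Ob.

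This order rests on where cluster 10 is counted. With cluster 10 added to the macrophage-like clusters of Ob, the summed mitosis level was 1202 CPM and the replication level 633 CPM, above the 793 and 483 CPM of Mid_Ob. Then 23 of 32 mitosis genes and 2 of 14 replication genes were higher in Ob and none was lower (medians 0.67 and 0.21), beside 14.3% higher and 16.9% lower over all genes.

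**Figure D4:**
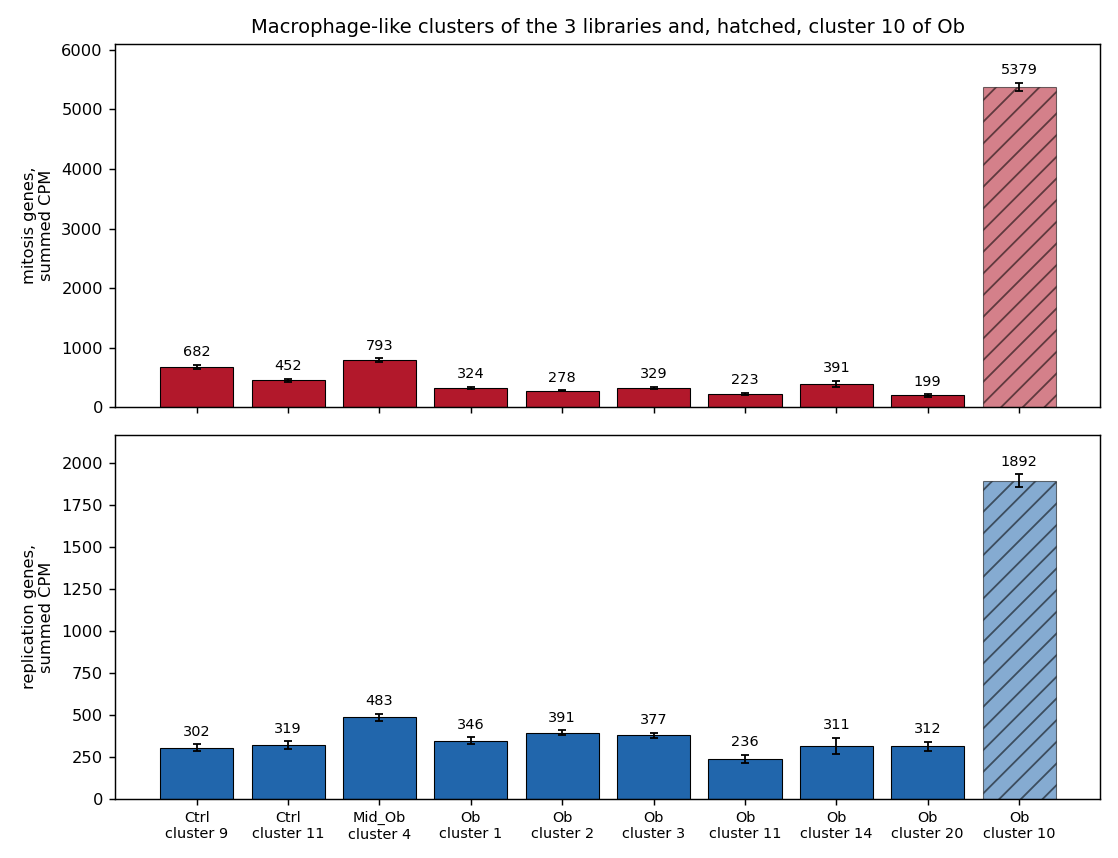
Summed level of the mitosis genes (upper panel) and replication genes (lower panel), in CPM, in each macrophage-like cluster and, hatched, in cluster 10 of Ob, where bars start at 0 and whiskers are 95% counting intervals. The 6 macrophage-like clusters of Ob lie at 199 to 391 CPM for mitosis, below the 793 CPM of Mid_Ob and far below the 5379 CPM of cluster 10.

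In Ctrl the mitosis transcripts lay elsewhere. Cluster 13, which was germ cell-like with all 10 spermatocyte markers above 2-fold, held 46.4% (46.0 to 46.9) of the mitosis UMIs of Ctrl but 17.8% (17.2 to 18.4) of its replication UMIs. Its levels were 3326 CPM (3286 to 3365) for mitosis and 348 CPM (336 to 361) for replication genes, a ratio of 9.55 (9.18 to 9.93), where cluster 10 of Ob had 2.84 (2.78 to 2.91). It was the highest cluster for 24 of 32 mitosis genes but for 2 of 14 replication genes, Cdc6 and Hells, where 11.5% of all genes peaked there. Knl1 had the most counts, at 490 CPM, followed by Smc2 at 301, Smc4 at 278 and Kif11 at 233 CPM. Top2a stood at 149 CPM and Mki67 at 18.1 CPM. Hells led the replication genes with 141 CPM, before Rrm1 (38.7), Atad2 (38.1) and Pola1 (31.5 CPM).

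Several members peaked in other clusters of Ctrl. Mki67 (46.6 CPM) and Kif4 (23.2 CPM) were highest in testis somatic-like cluster 6, as was Brip1 (62.5 CPM). Beside 13 of 14 testis somatic markers, cluster 6 also had 7 of 10 spermatogonium and 7 of 10 spermatocyte markers above 2-fold. Its spermatocyte markers summed to 1567 CPM, beside 929 to 2183 CPM in the germ cell-like clusters. The part of these markers in its levels was not tested. Cluster 6 had the highest summed replication level of Ctrl, 439 CPM (425 to 453), yet few members peaked there, and 6.14% of all genes did. Aspm, Bub1, Ccna2, Ccnb1 and Birc5 were highest in the small germ cell-like cluster 12 and Plk1 in unnamed cluster 1, on 4 to 43 counts each. Diaph3 reached 671 CPM in germ cell-like cluster 7, beside 214 CPM in the next cluster, and Atad2 (184 CPM) and Cdc45 (45.7 CPM) also peaked there. Pola1 was highest in macrophage-like cluster 11 at 146 CPM, close to cluster 6 at 136 CPM. Mcm4 (17.3 CPM) and Mcm6 (31.4 CPM) were highest in lymphocyte-like cluster 10, Mcm2 (7.04 CPM) in macrophage-like cluster 11, Mcm3 (10.3 CPM) and Rrm1 (43.8 CPM) in unnamed cluster 1, and Pcna (43.3 CPM), Mcm5 (12.999 CPM) and Ezh2 (147 CPM) in cluster 12. Rrm2 peaked in cluster 10 on 4 counts.

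Set side by side, cluster 13 of Ctrl and cluster 10 of Ob shared high mitosis genes and differed in replication genes. Of the mitosis genes 19 were lower in cluster 13 and 2 higher (median log2 ratio -0.84), and of the replication genes 12 were lower and none higher (median -3.05), beside 39.1% lower and 40.1% higher over all genes. Cdc20 had 58.5 CPM in the first and 15.8 CPM in the second (ratio 3.70, 2.90 to 4.79), and Smc2 at 301 and 172 CPM (1.75, 1.62 to 1.90). Cenpf (1.45), Knl1 (1.25) and Aurka (1.32) were within 1.5-fold. The lowest ratios were those of Kif4 (0.0339, 0.0246 to 0.0457), Pola1 (0.0441, 0.0386 to 0.0500), Mcm4 (0.0583, 0.0293 to 0.106) and Mki67 (0.0647, 0.0542 to 0.0768). Hells (1.32) and Cdc45 (0.823) were the replication genes within 1.5-fold. These values come from different libraries and cell types, and library and cell type cannot be told apart.

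Within Ctrl, cluster 13 against the macrophage-like clusters gave 29 of 31 mitosis genes higher and none lower (median 2.41) but 5 of 11 replication genes higher and 2 lower (median 0.30), beside 37% higher and 38.7% lower over all genes. Cdc20 (18.6, 11.2 to 33.6) and Knl1 (16.95, 14.3 to 20.2) led, and Mki67 (0.738) and Kif4 (0.693) were within 1.5-fold. The 2 lower genes were Pola1 (0.233, 0.201 to 0.270) and Mcm3 (0.535). Of 18 G1 regulators 13 were lower and 4 higher (median -1.31).

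**Figure D5:**
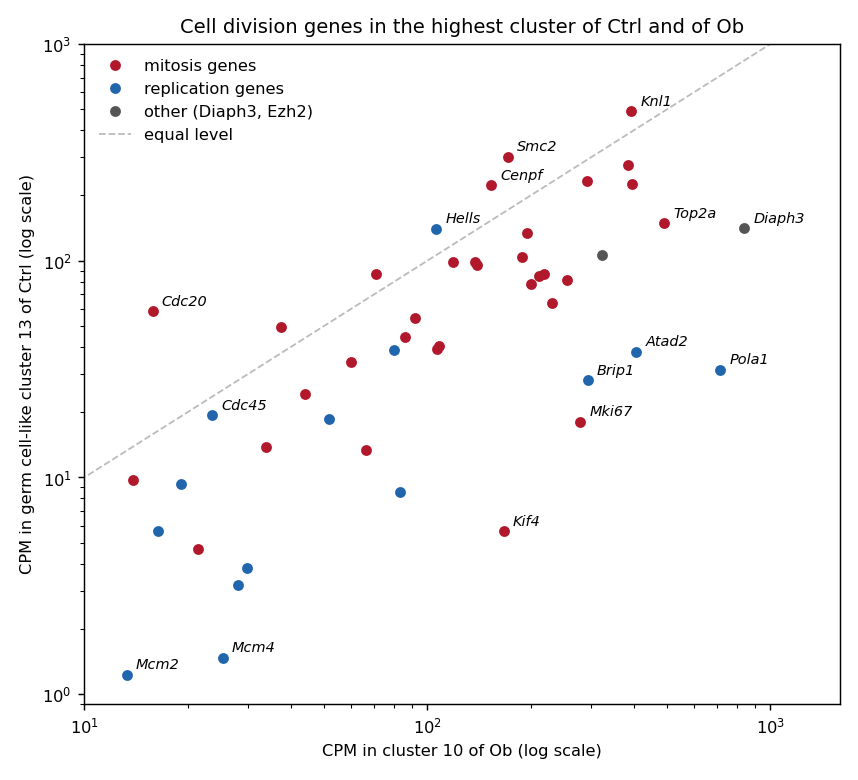
Level of each cell division gene in germ cell-like cluster 13 of Ctrl against its level in cluster 10 of Ob, both in CPM on log scales, with a line of equal level. Cdc20 and Smc2 lie above the line by more than 1.5-fold, and Kif4, Mki67, Pola1, Atad2, Brip1 and the MCM genes lie well below it.

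In Mid_Ob no cluster stood apart in this way. Macrophage-like cluster 4 was highest in both lists, 793 CPM for mitosis and 483 CPM for replication genes, and was the highest cluster for 20 of 32 and 4 of 14 genes, where 10.2% of all genes peaked there. Lymphocyte-like cluster 10 came next with 714 CPM (646 to 788) and 387 CPM. Mki67 and Top2a were about level in these clusters (48.2 and 56.9 CPM in cluster 4, 51.9 and 57.3 CPM in cluster 10), and Smc4 (209 CPM), Mcm6 (44.8 CPM), Pcna (34.0 CPM) and Atad2 (102 CPM) peaked in cluster 10. Smc4, Top2a, Kif23 (48.5 CPM) and Mki67 had the most counts of the mitosis genes in cluster 4, and Pola1 (186 CPM), Atad2 (88.2 CPM), Brip1 (47.6 CPM) and Hells (35.2 CPM) of the replication genes. Cenpf (30.3 CPM), Aspm (20.6 CPM), Nusap1 (18.96 CPM) and Ccnb1 (3.25 CPM) were highest in endothelial-like cluster 9. Anln (50.9 CPM), Aurka (5.13 CPM), Diaph3 (198 CPM) and Rrm1 (31.7 CPM) peaked in mesothelial-like cluster 6, Hells (36.4 CPM) and Rrm2 in fibroblast or progenitor-like cluster 8, Cdc45 (11.6 CPM) in adipocyte-like cluster 1 and Cdc20 in unnamed cluster 5 on 5 counts. Ccnb2, Plk1, Mcm2, Mcm4, Mcm5 and Ezh2 also peaked in cluster 10, where Ezh2 stood at 98.5 CPM. Unnamed cluster 7 had 129 CPM of mitosis and 266 CPM of replication transcripts, a ratio of 0.487 (0.410 to 0.577) where cluster 4 had 1.64.

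In adipocyte-like clusters the level of Ob turned on 1 cluster. From Ctrl to Ob the summed mitosis level was 305, 160 and 335 CPM and the replication level 178, 153 and 227 CPM. Spermatocyte markers summed to 292 CPM in cluster 2 of Ctrl, 118 in cluster 1 of Mid_Ob and 127 to 231 in the clusters of Ob, spermatid markers to 443, 112 and 82.3 to 97.8 CPM, and epididymal markers to 304, 2729 and 63.8 to 87.5 CPM. Their part in the levels was not tested. Between Ob and Mid_Ob 29 of 32 mitosis and 9 of 14 replication genes were higher and none lower (medians 1.20 and 0.77), beside 15.3% higher and 19% lower over all genes. Cluster 5 of Ob had 466 CPM of mitosis transcripts, clusters 4 and 7 had 155 and 129, and 31 of 32 mitosis and 13 of 14 replication genes were higher in cluster 5 than in clusters 4 and 7, beside 24.9% higher and 7.63% lower over all genes. Cluster 5 held 25.5% of the mitosis and 27.4% of the replication UMIs of Ob, and its macrophage markers summed to 2259 CPM, beside 478 CPM in clusters 4 and 7. The part of these markers in the result was not tested. Without cluster 5 the medians were -0.33 (3 higher and 5 lower of 28) and -0.10 (none higher and 2 lower of 12), beside 9.88% higher and 26.3% lower over all genes. Kif23 (7.87, 6.09 to 10.3), Rrm2 (7.49, 3.46 to 19.3), Mki67 (7.38, 5.73 to 9.65) and Diaph3 (7.37, 6.54 to 8.32) had the highest ratios of cluster 5 to clusters 4 and 7, and Cdc45 (0.881), Ezh2 (1.33) and Anln (1.43) were within 1.5-fold.

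The other adipose classes gave fewer genes with enough counts. In fibroblast or progenitor-like clusters the mitosis level was 417 CPM in Mid_Ob and 856 in Ob, and 23 of 29 mitosis genes were higher and none lower (median 1.12), beside 18.6% higher and 13.4% lower over all genes, while replication genes had 329 and 396 CPM (4 higher and 1 lower of 10, median 0.26). Macrophage markers summed to 3400 CPM in cluster 19 of Ob, beside 407 in cluster 8 of Ob and 461 in cluster 8 of Mid_Ob, and the mitosis level of cluster 8 of Ob, 871 CPM, was also above the 417 of Mid_Ob. Unnamed cluster 9 of Ob, left out of this class, had 14 of 14 fibroblast and 8 of 12 endothelial markers above 2-fold. Its levels, 206 CPM for mitosis and 202 CPM for replication genes, were below the 417 and 329 CPM of Mid_Ob. In lymphocyte-like clusters the mitosis level was 689, 714 and 1322 CPM over Ctrl, Mid_Ob and Ob, and the replication level 413, 387 and 719 CPM. Of 7 mitosis genes with enough counts 5 were higher in Ob than in Mid_Ob and none was lower, beside 11.5% higher and 11% lower over all genes. Mesothelial-like clusters had 390, 455 and 314 CPM of mitosis transcripts. Of 16 genes 9 were higher and 1 lower in Mid_Ob than in Ctrl, beside 8.06% higher and 12.3% lower over all genes, with 5 of 10 genes lower in Ob than in Mid_Ob and none higher, beside 9.58% lower and 13.3% higher over all genes. Endothelial-like clusters were near level in Mid_Ob and Ob, at 455 (424 to 486) and 508 CPM (458 to 561), with 1 of 6 mitosis genes higher and 1 lower, beside 13.3% higher and 19.8% lower over all genes. The Ob class pooled unlike clusters, 16 (526 CPM) and 21 (493 CPM). Cluster 16 also had 14 of 16 adipocyte and 12 of 14 fibroblast markers above 2-fold. Prox1 and Flt4 were among the leading genes of cluster 21, whereas Flt1 and Ptprb were among those of cluster 16 and of cluster 9 of Mid_Ob. As genes that passed the minimum of 50 counts are a part of each list, the sums stand for all members.

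Members also differed in how closely each followed its own list across clusters. The median Spearman's rho of a mitosis gene with the mean log2 level of the other mitosis genes was 0.87 over the 14 clusters of Ctrl, 0.82 over the 11 of Mid_Ob and 0.84 over the 21 of Ob. For replication genes it was 0.41, 0.66 and 0.75. Clusters of a library share depth and free RNA, so these are descriptions. Replication genes followed the rest of their list less closely than mitosis genes did in each library. That rest was a mean over fewer genes in the replication list (14 genes) than in the mitosis list (32 genes). Genes with few counts were included, such as Rrm2 with 73 in Ctrl and Plk1 with 57 in Mid_Ob. The part of list size and counts in this difference was not tested.

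Some single values need care. Anln overlaps another listed gene on its own strand, and Kif4, Ccna2, Cdc20, Prc1, Nusap1, Ncapg and Cdc45 each overlap 1 on the other strand, so counts could be shared. The share of mitochondrial UMIs was 0.220%, 0.343% and 0.472% in Ctrl, Mid_Ob and Ob, and the median UMI number per nucleus was 4472, 6676 and 3946; their part in the levels was not tested.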

How the data were processed

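Nuclei of mouse epididymal fat were profiled by 10x Genomics single-nucleus RNA sequencing, with 1 library each for Ctrl, Mid_Ob and Ob, grouped by the sample titles. The authors used Cell Ranger with STAR, and neither versions nor the build of the genome are named in the sources used here. The authors deposited, for each cluster, a mean count per gene (signal scaled to the median UMI total), from which whole counts were recovered (100% whole within 0.001). The authors' deposited fold changes and p-values of each cluster against the rest were not used. Counts were summed over clusters and divided by all UMIs (CPM). With 1 library per stage, no test was made: CPM ratios have 95% conditional binomial intervals, shares exact binomial (Clopper-Pearson) intervals and CPM exact Poisson intervals, which cover counting error only, and a gene was called past 1.5-fold with at least 50 counts in the pair. The floor is 3 counts. A named cluster had at least 3 markers of its class above 2-fold, but this minimum alone did not decide the names. Cluster 9 of Ob, with 14 of 14 fibroblast markers above 2-fold, was left unnamed. Cluster 10 of Ctrl, with 12 of 14 macrophage and 11 of 12 lymphocyte markers, was named lymphocyte-like. The members and lists were chosen with earlier results of these data known. Genes were named by a rule: Mki67, Top2a, Ezh2 and Diaph3, the members with the most counts, the 3 highest and 3 lowest ratios, members against their list's median and members peaking outside their list's cluster. Other names were chosen after values were seen. Alternatives changed clusters left out, cluster weights, scaling, the count minimum and the mitochondrial total. There were 0 columns of other samples. Scripts were tested on simulated data and ran in matplotlib 3.10.9, pandas 2.3.3, scipy 1.17.1 and numpy 2.4.6 under Python 3.11.15.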

Additional observations from a re-analysis of the deposited data

Results flagged for a closer look

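The median log2 ratio of a list took opposite signs in different cell classes, and the differences between classes were not tested, as each stage was 1 library. Between Mid_Ob and Ctrl, mitosis genes had a median of 0.70 in clusters named mesothelial-like, beside -0.80 in those named adipocyte-like. Between Ob and Ctrl they had 0.98 in lymphocyte-like and -1.05 in macrophage-like clusters. Between Ob and Mid_Ob they had 1.20 in adipocyte-like, 1.07 in lymphocyte-like and 1.12 in fibroblast or progenitor-like clusters, beside -1.59 in macrophage-like and -0.61 in mesothelial-like clusters. Replication genes between the same stages had 0.77 in adipocyte-like and -0.62 in macrophage-like clusters. For Ob over Mid_Ob the signs turned with single clusters. Without cluster 5 of Ob the adipocyte-like medians were -0.33 for mitosis and -0.10 for replication genes, and with cluster 10 of Ob added the macrophage-like medians were 0.67 and 0.21.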

How the results depend on the processing

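Values are median log2 ratios unless given as shares. With testis and epididymis clusters left out, mitosis genes went from -1.97 to -0.67 (Mid_Ob over Ctrl) and from -0.81 to 0.68 (Ob over Ctrl), and replication genes from -0.50 to -0.068 and from 0.29 to 0.72. Leaving out only germ cell-like and testis somatic-like clusters, chosen after seeing the data, gave -0.60, 0.68, -0.093 and 0.69. With equal weight for every cluster, mitosis genes had -1.42, 1.02 (Ob over Mid_Ob, 1.32 as reported) and -0.44, and replication genes -0.26 (1 higher and 4 lower), 0.52 (0.79 as reported, with 6 instead of 10 genes higher) and 0.47. Scaling to the median of gene ratios gave -0.51 for mitosis genes in Ob over Ctrl, and for replication genes -0.37 in Mid_Ob over Ctrl and 0.60 in Ob over Ctrl. Without cluster 10 of Ob, mitosis genes had 0.66 (18 of 32 genes higher and none lower) over Mid_Ob and -1.37 over Ctrl (none higher and 28 lower), and replication genes 0.42 (6 of 14 higher and none lower) and -0.012 (1 higher and 4 lower). Leaving out testis, epididymis and unnamed clusters with cluster 10, also chosen after seeing the data, gave 0.62 (18 higher) and 0.47 (5 higher) for Ob over Mid_Ob. Leaving out cluster 1 of Ctrl and cluster 5 of Mid_Ob with the testis and epididymis clusters, chosen likewise, gave -0.51 and -0.064 for Mid_Ob over Ctrl and 0.82 and 0.73 for Ob over Ctrl. Leaving out the testis and epididymis clusters with cluster 10 was chosen after seeing the data too. For Ob over Mid_Ob it gave 0.68 and 0.51 (6 higher). For mitosis genes in Ob over Ctrl it gave 0.029 (3 higher and 5 lower). In macrophage-like clusters, adding cluster 10 turned -1.59 to 0.67 and -0.62 to 0.21. In adipocyte-like clusters, leaving out cluster 5 (chosen after seeing the data) turned 1.20 to -0.33 and 0.77 to -0.10. The share of mitosis UMIs in cluster 10 of Ob (38.3%) was 37.8% with equal weights, 39.2% as a mean over members and 40.3% without Smc4, Top2a and Knl1. The share of replication UMIs (23.0%) was 21.9% as a mean and 18.6% without Pola1, Atad2 and Brip1. Of 90 such checks, 51 left a result within its interval, 31 moved it outside and 8 turned the sign of a median past 1.5-fold. For a share, this was the counting interval. For a median ratio, it ran from the median lower limit to the median upper limit of the single genes. That range is not a counting interval of the median itself. Beyond the clusters each setting leaves out or reweights, the cause was not tested. No paired analysis was possible because each stage was 1 library. Depth limits genes such as Plk1, Ccna2 and Rrm2, which had under 50 counts in several classes.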
